A study of Mus musculus with 4 samples.

Results

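The translation initiation factors (eIFs) and elongation factors (eEFs) are the soluble proteins that bring mRNA, ribosomal subunits and aminoacyl-tRNAs together during protein synthesis, and here they were taken with their dedicated kinases, inhibitors and methyltransferases. Members were the protein-coding genes whose mouse symbol begins with Eif or Eef followed by a digit, without the X- and Y-linked genes of the eIF2 gamma subunit, which gave 65 genes of 48709 gene identifiers in the count files. Of these, 53 are Eif genes and 12 are Eef genes, and they were divided into 14 complexes or functional groups. Livers of untreated adult C57BL/6 mice gave 4 mRNA libraries, 2 of WT and 2 of DDI2-KO, made to ask how loss of the aspartyl protease DDI2 affects expression in the liver. The DDI2-KO mice were Ddi2 flox/flox and carried Cre recombinase under the albumin promoter (AlbCre+), which is active in hepatocytes, and the WT mice were Ddi2 flox/flox littermates without Cre (AlbCre-), so both groups carried the floxed allele. Whether other cell types of the liver keep an intact Ddi2 gene in this model was not measured here.

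An mRNA is first bound at its cap by eIF4E, which with the scaffold eIF4G and the helicase eIF4A forms the eIF4F complex. The small ribosomal subunit, carrying eIF1, eIF1A, eIF3 and the eIF2-GTP-initiator tRNA complex, then scans to the start codon, after which eIF5 and eIF5B allow the large subunit to join. During elongation, eEF1A delivers aminoacyl-tRNAs, eEF1B recharges eEF1A with GTP and eEF2 moves the ribosome by a codon. The pathway is controlled chiefly by kinases that phosphorylate eIF2 alpha, by the 4E-binding proteins that sequester eIF4E, and by the kinase that inhibits eEF2.

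Depth ran from 22501208 to 34109018 reads on genes. Levels are given as CPM, counts corrected for depth with TMM scaling factors, and levels of different genes are compared only as CPM per kilobase of merged annotated exons. The whole-gene level of Ddi2 averaged 132 CPM in WT (SD 12.6, n = 2) and 161 CPM in libraries labelled DDI2-KO (SD 5.09, n = 2). The floxed exon 2 makes up 1.36% of the longest annotated Ddi2 transcript, so this count does not check the labels. The 6 hepatocyte markers summed to between 142921 and 176991 CPM in the 4 libraries, which fits the labelled tissue. Summed markers were 52.8 to 56.4 CPM in WT and 68.7 to 70.4 CPM in DDI2-KO for biliary epithelium, 305 to 378 and 369 to 420 CPM for Kupffer cells and macrophages, 310 to 338 and 302 to 307 CPM for sinusoidal endothelium, 130 to 138 and 109 to 117 CPM for stellate cells, and 25.8 to 26.3 and 18.7 to 21.1 CPM for lymphocytes. The biliary sum was mostly Spp1, with 51.9 and 46.3 CPM in WT and 64.2 and 62.4 CPM in DDI2-KO. The next highest biliary marker, Sox9, had 2.11 and 3.88 CPM against 2.63 and 3.61 CPM. Kupffer cell and macrophage markers had log2 fold changes of 0.58 (Adgre1), 0.32 (Clec4f), 0.23 (Vsig4), -0.33 (Marco) and -0.62 (Cd68). Endothelial markers ran from -1.10 for Stab2 to 0.22 for Clec4g. Erythroid markers summed to 56.6 to 106 CPM in WT and 38.2 to 44.1 CPM in DDI2-KO. Skeletal muscle markers stayed under 1 CPM, with Ckm and Acta1 at 0 in every library. Of the 38 markers, the endothelial Stab2 and the erythroid Hba-a1 passed the edgeR test used below, both lower in DDI2-KO, and the part of these cell types in the values below was not tested. In bulk liver RNA, fewer cells of a type and less RNA per cell cannot be told apart.

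Of the 65 genes, 63 had at least 1 read and 61 passed the filter on low counts. Eef1a2, the eEF1A form of muscle and neurons, and Eif4e1b, an oocyte form of eIF4E, had no read in any library, where 3 counts, taken as the detection floor, correspond to 0.0880 to 0.133 CPM. Eef1akmt3 had at most 1 read and Eif3j2 at most 3 reads in a library. Of those that passed, Eif4ebp3 alone did so through 1 group, with 18 and 20 reads in WT but 9 and 1 in DDI2-KO.

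In the quasi-likelihood test of edgeR, adjusted by Benjamini-Hochberg, 2 of the 61 genes (3.28%) had an adjusted p under 0.05, both higher in DDI2-KO, where 346 of all 13699 tested genes (2.53%) did. By direction, the background was 182 genes higher (1.33%) and 164 lower (1.2%). The share of translation factor genes called was therefore close to that of all genes. At an unadjusted p under 0.05, 11 were higher and 1 was lower, together 19.7%, compared with 23.5% of all tested genes (12% higher and 11.5% lower).

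Other settings called 0 to 4 of the translation factor genes, as detailed in the closing section, and the background moved with them. The share of all tested genes with an adjusted p under 0.05 was 7.25% in DESeq2, 0.993% in limma-voom and 1.01% in limma-trend. In edgeR it was 2.64% with RLE factors, 2.31% with upper-quartile factors, 2.76% with library totals, 7.32% with no filter on low counts, 2.38% with a mean of at least 1 CPM, 1.11% with no robust estimation, 5.62% with length and GC offsets, and 8.09% with the replicate number as a block. It was 1.1% without WT library 1, 1.46% without WT library 2, 2.4% without DDI2-KO library 1 and 4.41% without DDI2-KO library 2.

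The 2 genes that rose were Eif1 and Eif3f, both parts of the complex that scans for the start codon. Among all 61, both DDI2-KO libraries were above both WT libraries for 24 genes (39.3%, compared with 28% of all tested genes) and below them for 14 (23.0%, compared with 27.7%), and the groups overlapped for 23. The median log2 fold change was 0.16, beside -0.015 over all genes and 0.0065 over protein-coding genes. Of the values, 37 lay above 0 (60.7%) and 24 below, or 37 and 23 without Eif4ebp3. The share above 0 was 48.7% of all tested genes and 50.6% of tested protein-coding genes. Without WT library 1 the median was 0.071, and without DDI2-KO library 1 it was 0.095. Relative to the WT mean, the median over the genes was -0.064 and 0.064 in WT and 0.15 and 0.095 in DDI2-KO, so the DDI2-KO medians lay above both WT medians, but above that of WT library 2 by less than the gap between the WT libraries. The difference between groups was larger than the difference within either group for 29 of the 61 (47.5%), near the 42.1% of all tested genes. Without the kinases, inhibitors and methyltransferases, the 49 tested genes had a median log2 fold change of 0.18, with 33 above 0 (67.3%) and 16 below. These 49 still held Eif1ad (0.39), Eif4a3 (0.18) and Eef1e1 (0.64), which entered by symbol and are described below. The 12 tested kinases, inhibitors and methyltransferases had a median of -0.033. Of these 12, 4 lay above 0 (33.3%) and 8 below, 1 of the 8 being Eif4ebp3. These are descriptions of the lists and were not tested against each other.

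**Figure D1:**
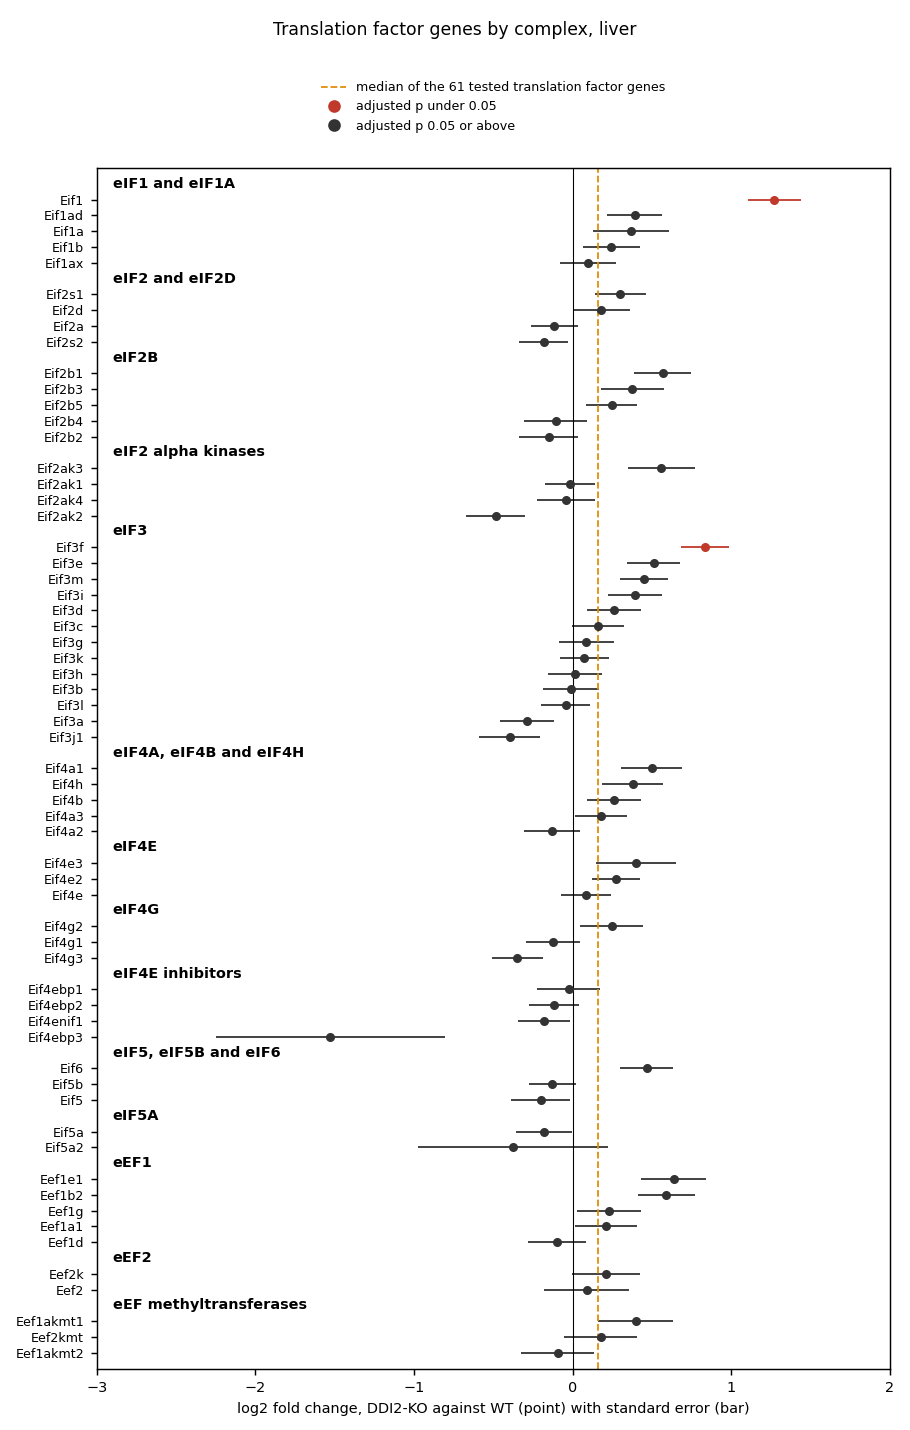
Log2 fold change of DDI2-KO against WT (x axis) for the 61 tested translation factor genes, grouped by complex, where points are edgeR estimates, bars are their standard errors and the dashed line is the median of the 61 genes. Eif1 at 1.27 and Eif3f at 0.83 are the points with an adjusted p under 0.05, and most other points lie within 0.6 of 0.

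eIF1 and eIF1A keep the scanning ribosome in an open state and reject codons other than AUG. Eif1 (ENSMUSG00000035530, chr11:100319885-100322096, plus strand, GRCm38) had 60.6 and 60.3 CPM in WT livers and 156 and 136 CPM in DDI2-KO livers. Both DDI2-KO values were more than 2 times either WT value, and the values within each group lay close together. Eif1 rose 2.42-fold (log2 fold change 1.27, standard error (SE) 0.16, edgeR adjusted p = 0.0186). Without WT library 1 the edgeR adjusted p of Eif1 was 0.0517. Of the 50-base stretches of its transcripts, 31.6% also occur in transcripts of 18 other annotated genes, so reads from these stretches cannot be assigned to Eif1 alone.

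Its paralog Eif1b had 10.4 and 11.4 CPM in WT and 12.9 and 12.9 CPM in DDI2-KO (log2 fold change 0.25, edgeR adjusted p = 0.453). Of the 50-base stretches of Eif1b, 0.811% occur in another gene's transcripts, those of D830035M03Rik and not of Eif1. Per kilobase, Eif1 made up 75.7% and 73.9% of the sum of Eif1 and Eif1b in WT and 86.6% and 85.0% in DDI2-KO. This share was computed after the values of Eif1 had been seen. Eif1ad, named for its eIF1A-like domain, had a log2 fold change of 0.39 with groups that did not overlap (edgeR adjusted p = 0.216). The eIF1A genes Eif1a and Eif1ax had 41.5 and 49.8 against 44.8 and 73.1 CPM and 29.1 and 33.0 against 29.7 and 36.9 CPM, respectively. Their groups overlapped, and Eif1a took 64.3%, 65.6%, 65.6% and 71.5% of the pair's level per kilobase in WT libraries 1 and 2 and DDI2-KO libraries 1 and 2. With 2 libraries against 2, the exact permutation test of such a share cannot give a p below 0.333, the value it gave for Eif1a. The 5 genes of this group had log2 fold changes above 0, with a median of 0.37, but without DDI2-KO library 2 Eif1a turned to -0.018 and Eif1ax to -0.058.

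Promoters of Eif1, Eif3f and Eef1e1 are shown because these are the 2 genes that rose and the gene with the next highest log2 fold change among those whose groups did not overlap. Each runs from 250 bases before to 50 bases after the RefSeq start on GRCm38.p6, 5′ to 3′ on the gene's strand, and capitals mark a match to a searched motif. The windows are chr11:100319699-100319998 (plus strand) for Eif1, chr7:108934165-108934464 (plus strand) for Eif3f and chr13:38658979-38659278 (minus strand) for Eef1e1.
Eif1: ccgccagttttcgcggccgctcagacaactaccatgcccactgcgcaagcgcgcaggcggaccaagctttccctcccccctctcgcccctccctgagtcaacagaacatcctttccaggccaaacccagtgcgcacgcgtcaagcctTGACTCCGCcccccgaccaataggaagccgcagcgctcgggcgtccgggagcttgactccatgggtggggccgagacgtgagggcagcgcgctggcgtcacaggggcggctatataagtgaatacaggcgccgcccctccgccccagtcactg
Eif3f: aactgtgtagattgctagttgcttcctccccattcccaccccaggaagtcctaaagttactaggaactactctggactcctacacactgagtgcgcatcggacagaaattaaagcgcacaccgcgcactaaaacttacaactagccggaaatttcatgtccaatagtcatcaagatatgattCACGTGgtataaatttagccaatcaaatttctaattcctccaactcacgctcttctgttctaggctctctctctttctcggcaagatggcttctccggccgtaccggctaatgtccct
Eef1e1: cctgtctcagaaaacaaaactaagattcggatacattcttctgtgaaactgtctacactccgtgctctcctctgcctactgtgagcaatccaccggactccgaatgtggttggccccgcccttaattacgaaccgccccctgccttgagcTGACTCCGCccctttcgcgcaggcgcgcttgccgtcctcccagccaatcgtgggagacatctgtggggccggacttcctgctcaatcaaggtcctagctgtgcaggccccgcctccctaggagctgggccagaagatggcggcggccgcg
The searched motifs, on both strands, were TGACNNNGC, the core of the antioxidant response element that NRF1 and NRF2 bind with small MAF proteins, the C/EBP-ATF response element core TTGCATCA, and the E-box CACGTG. Eif1 and Eef1e1 hold the same antioxidant element letters, TGACTCCGC, starting at positions -103 and -100 from the RefSeq start, and Eif3f holds CACGTG at position -68. TGACNNNGC was also in promoters of Eef1b2 (log2 fold change 0.59), Eif3j1 (-0.40) and Eif3a (-0.29), among others, and Eif3a held CACGTG too. RefSeq gave 64 promoters for 49 of the 65 genes. TGACNNNGC was in 17.2% of these promoters, compared with 12.4% of all 32851 promoters and 14.1% of those of tested protein-coding genes. CACGTG was in 21.9%, compared with 7.15% of all promoters and 9.57% of those of tested protein-coding genes, and TTGCATCA was in none of the 64, compared with 0.895% of all. The median log2 fold change was -0.0086 for the 10 genes with TGACNNNGC in a promoter and 0.092 for the 38 tested genes without it. For CACGTG it was 0.087 for 12 genes and 0.092 for the 36 without. These matches describe letters in the window and were not tested as binding sites.

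eIF2 carries the initiator tRNA, and its alpha subunit, encoded by Eif2s1, is the target of the stress kinases. Eif2s1 had 35.4 and 40.3 CPM in WT and 48.9 and 44.3 CPM in DDI2-KO, groups that did not overlap, but the difference did not pass the test (log2 fold change 0.30, edgeR adjusted p = 0.296). Eif2s2, the beta subunit, lay on the other side, with 35.6 and 32.6 CPM in WT and 29.5 and 30.6 CPM in DDI2-KO (log2 fold change -0.18, edgeR adjusted p = 0.524). Eif2a and Eif2d, which can deliver tRNA to the ribosome without eIF2, had log2 fold changes of -0.12 and 0.18.

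eIF2B is the exchange factor that reloads eIF2 with GTP and is blocked by phosphorylated eIF2 alpha. Its alpha subunit gene Eif2b1 had 16.7 and 20.4 CPM in WT and 29.1 and 25.9 CPM in DDI2-KO. The groups did not overlap, and the log2 fold change was 0.57 (SE 0.18, edgeR adjusted p = 0.113), which passed the threshold with no filter on low counts (edgeR adjusted p = 0.0451). The catalytic epsilon subunit Eif2b5 had the highest level per kilobase of the 5, and its CPM were 38.6 and 39.9 in WT and 50.5 and 42.7 in DDI2-KO. The other subunit genes had log2 fold changes of 0.38 for Eif2b3, -0.11 for Eif2b4 and -0.15 for Eif2b2, so the 5 subunits of 1 complex lay on both sides of 0. As a share of the complex's summed level per kilobase, computed after the values had been seen, Eif2b1 took 18.2% and 20.7% in WT and 24.8% and 25.4% in DDI2-KO.

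The 4 eIF2 alpha kinases sense heme (Eif2ak1, HRI), double-stranded RNA (Eif2ak2, PKR), unfolded protein in the endoplasmic reticulum (Eif2ak3, PERK) and uncharged tRNA (Eif2ak4, GCN2). Eif2ak2 had 21.4 and 19.6 CPM in WT and 16.3 and 12.9 CPM in DDI2-KO. It had the 1 unadjusted p under 0.05 among the values below 0 (log2 fold change -0.49, SE 0.19, edgeR adjusted p = 0.170). Eif2ak3 had 14.1 and 20.3 CPM in WT and 27.0 and 23.6 CPM in DDI2-KO (log2 fold change 0.56, SE 0.21, edgeR adjusted p = 0.166). Neither kinase passed the test, although the groups did not overlap for either. Eif2ak1 had 66.8 and 57.1 CPM against 61.8 and 60.6 CPM, and Eif2ak4 had 11.5 and 12.7 CPM against 11.2 and 12.2 CPM, with overlapping groups in both. Of the kinases' summed level per kilobase, Eif2ak1 took 59.4% and 53.1% in WT and 54.3% and 57.0% in DDI2-KO, the largest share of the 4 in each library. Eif2ak2 took 21.1% and 20.2% in WT and 15.9% and 13.4% in DDI2-KO, and Eif2ak3 took 11.8% and 17.8% in WT and 22.3% and 20.9% in DDI2-KO, each with an exact permutation p of 0.333, the smallest possible.

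eIF3 is the largest initiation factor, a scaffold that holds the small ribosomal subunit and links it to eIF4G. Eif3f, one of its MPN-domain subunits (ENSMUSG00000031029, chr7:108934417-108942951, plus strand), had 48.6 and 47.6 CPM in WT and 84.2 and 87.3 CPM in DDI2-KO. Replicates lay close together and the groups were well apart. Eif3f rose 1.78-fold (log2 fold change 0.83, SE 0.15, edgeR adjusted p = 0.0404). None of its 50-base stretches occurs in another gene's transcripts. Its call was lost under limma-voom (adjusted p = 0.0524), limma-trend (0.0536) and edgeR without robust estimation (0.0529), and without WT library 1 (0.173) or WT library 2 (0.156).

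The other 12 tested eIF3 genes did not pass. Of these, Eif3e, Eif3m, Eif3i, Eif3d and Eif3c had both DDI2-KO values above both WT values, with log2 fold changes of 0.51, 0.45, 0.39, 0.26 and 0.16. Of all tested genes, 28% had both DDI2-KO values above both WT values and 27.7% had both below. Eif3a, the largest core subunit, had 137 and 129 CPM in WT and 118 and 99.6 CPM in DDI2-KO (log2 fold change -0.29, edgeR adjusted p = 0.347). Eif3j1, the loosely bound subunit, had 17.1 and 18.9 CPM in WT and 12.1 and 15.3 CPM in DDI2-KO (log2 fold change -0.40, edgeR adjusted p = 0.247), and 54.8% of its stretches also occur elsewhere, chiefly in the untested copy Eif3j2. Subunits of the same particle were therefore measured on both sides of 0. Groups overlapped for Eif3b, Eif3g, Eif3h, Eif3k and Eif3l, whose log2 fold changes ran from -0.044 for Eif3l to 0.087 for Eif3g.

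Eif3h had the highest level per kilobase of the eIF3 genes in every library, 59.2 ± 8.33 (SD, n = 2) in WT and 60.0 ± 0.562 (SD, n = 2) in DDI2-KO. Other annotated genes hold 26.2% of the 50-base stretches of Eif3h and 42.1% of those of Eif3d. Of the level per kilobase summed over the 13 tested eIF3 genes, Eif3f took 6.53% and 5.82% in WT and 9.31% and 10.2% in DDI2-KO. It ranked 7 and 8 among them in WT and 3 in both DDI2-KO libraries, a comparison made after its values were known.

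**Figure D2:**
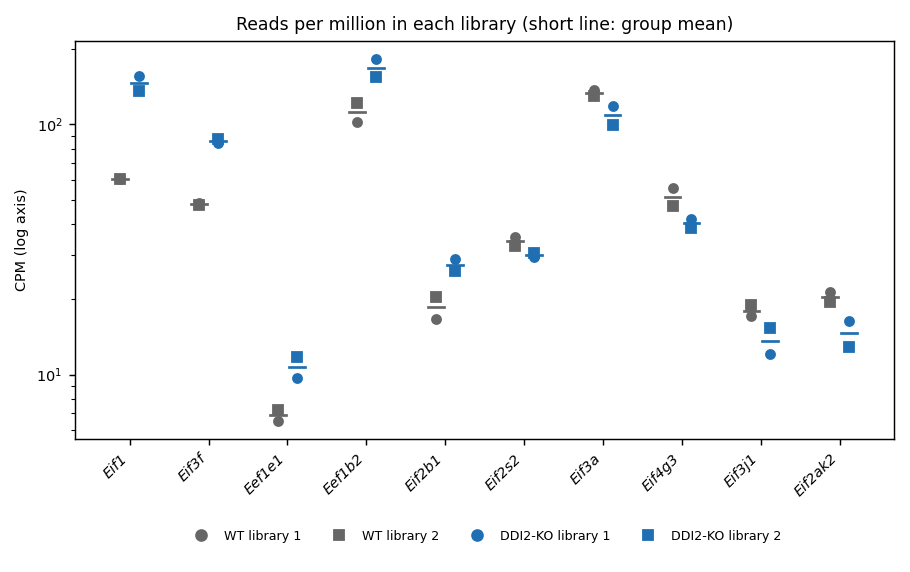
CPM on a log axis in each of the 4 libraries for 10 translation factor genes, the 5 highest and 5 lowest log2 fold changes among those with a mean of at least 1 CPM whose groups do not overlap, with short lines for group means. Eif1 and Eif3f are separated by much more than the spread within a group, while Eif2s2 and Eif3a are separated by little.

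The cap-binding complex eIF4F holds the helicase eIF4A, the cap-binding protein eIF4E and the scaffold eIF4G, with eIF4B and eIF4H stimulating the helicase. Eif4a1 had 43.1 and 60.3 CPM in WT and 74.5 and 71.6 CPM in DDI2-KO (log2 fold change 0.50, SE 0.19, edgeR adjusted p = 0.170), with 33.3% of its stretches shared, chiefly with an eIF4A pseudogene. Eif4a2, its close paralog, had 190 and 157 CPM in WT and 156 and 162 CPM in DDI2-KO. Per kilobase, Eif4a1 took 21.8% and 32.1% of the pair in WT and 37.0% and 35.3% in DDI2-KO. This difference in share between the groups had an exact permutation p of 0.333, the smallest possible. Eif4a2 was the larger part in all 4 livers.

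Eif4b had the highest level per kilobase among the helicase genes, 69.2 ± 2.18 (SD, n = 2) in WT and 83.0 ± 4.19 (SD, n = 2) in DDI2-KO, and its CPM were 302 and 316 against 384 and 357. Its log2 fold change was 0.26 (edgeR adjusted p = 0.388), that of Eif4h 0.38 and that of Eif4a3, which serves in the exon junction complex, 0.18. Groups did not overlap for these 3 genes, with DDI2-KO on the higher side, and none passed the test. Both DDI2-KO libraries were likewise above both WT libraries for 28% of all tested genes.

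The groups overlapped for Eif4e itself, with 33.8 and 34.5 CPM in WT and 34.5 and 38.0 CPM in DDI2-KO (log2 fold change 0.084, edgeR adjusted p = 0.785). Eif4e2, a cap-binding protein that represses translation, had 40.4 and 43.5 CPM against 52.0 and 49.5 CPM, and Eif4e3 had 7.35 and 4.76 CPM against 8.07 and 7.92 CPM. Their log2 fold changes were 0.28 and 0.40, and neither passed the test. Eif4e took 40.4% and 42.7% of the 3 genes' summed level per kilobase in WT and 36.1% and 39.3% in DDI2-KO, and Eif4e2 took 38.6% and 43.2% against 43.7% and 41.1%, with Eif4e3 making up the rest. The shares of Eif4e did not overlap between groups, while those of Eif4e2 and Eif4e3 did. Merged exons span 6008 bases for Eif4e and 7497 for Eif4e2, while the longest transcripts span 4991 and 3473. The size of these shares therefore depends on the length used.

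The scaffolds Eif4g1 and Eif4g2, the latter of which lacks the eIF4E-binding region, had similar levels per kilobase in WT, 45.7 and 46.2. In DDI2-KO the levels were 41.9 for Eif4g1 and 54.8 for Eif4g2. Eif4g3 had 55.4 and 47.1 CPM in WT and 41.9 and 38.7 CPM in DDI2-KO (log2 fold change -0.35, SE 0.16, edgeR adjusted p = 0.238). In CPM, Eif4g1 had 332 and 335 against 324 and 288, and Eif4g2 had 448 and 491 against 476 and 638, the last being the highest value of the 4 libraries. The share of Eif4g3 in the family was 5.30% and 4.32% in WT and 3.98% and 3.31% in DDI2-KO, and that of Eif4g2 was 46.6% and 49.0% in WT and 49.3% and 59.4% in DDI2-KO.

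The 4E-binding proteins and the eIF4E transporter Eif4enif1 keep eIF4E from eIF4G. Of the 3 genes that did not pass the filter through WT alone, each had a log2 fold change below 0, with a median of -0.12, but Eif4ebp1 turned to 0.023 with library totals in place of TMM, 0.17 without DDI2-KO library 2 and 0.14 without WT library 2. None of the group passed the test. Eif4ebp2, the highest of them per kilobase, had 105 and 95.6 CPM in WT and 92.1 and 92.2 CPM in DDI2-KO (log2 fold change -0.12, edgeR adjusted p = 0.696). Eif4ebp1 had 20.2 and 25.1 CPM in WT and 25.3 and 19.1 CPM in DDI2-KO, which overlapped, and Eif4enif1 had a log2 fold change of -0.18. Eif4ebp3 had the largest negative value, -1.53 on the log2 scale (SE 0.72, edgeR adjusted p = 0.243), but it rests on the few reads given above and ran from -3.63 without DDI2-KO library 1 to -0.75 without DDI2-KO library 2, and 65.5% of its stretches occur in another annotated transcript. Eif4ebp2 took 64.5% and 57.4% of the summed level per kilobase of the 3 binding proteins in WT and 57.0% and 64.5% in DDI2-KO.

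**Figure D3:**
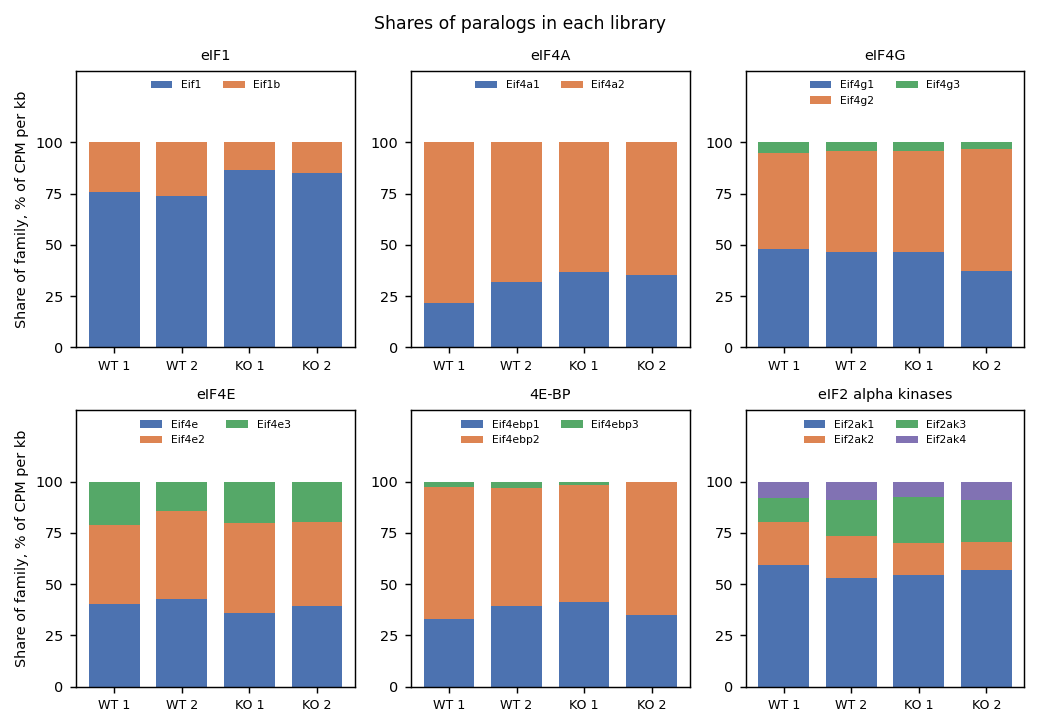
Share of each paralog in the summed CPM per kilobase of its family (y axis, percent) in each of the 4 libraries, for 6 families. Eif1 takes a larger part of eIF1 in both DDI2-KO libraries, Eif4a2 exceeds Eif4a1 in every library, and Eif2ak1 is the largest kinase share throughout.

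Subunit joining is prepared by eIF5, which triggers GTP hydrolysis by eIF2, by the GTPase eIF5B and by eIF6, which holds the large subunit apart until it is released. Eif5 had 210 and 182 CPM in WT and 152 and 189 CPM in DDI2-KO (log2 fold change -0.20, edgeR adjusted p = 0.559), with overlapping groups. Eif6 had 21.4 and 23.4 CPM in WT and 33.4 and 28.6 CPM in DDI2-KO (log2 fold change 0.47, SE 0.17, edgeR adjusted p = 0.148), and Eif5b had a log2 fold change of -0.13. eIF5A, the sole family of proteins that carry hypusine, aids elongation and termination. Eif5a had 266 and 318 CPM in WT and 264 and 251 CPM in DDI2-KO, and its log2 fold change was -0.18 (edgeR adjusted p = 0.589). Eif5a2 was below 0.5 CPM in each library, and Eif5a took 99.9% or more of the pair's level per kilobase in every library.

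The elongation factors Eef1a1 and Eef2 had the highest levels per kilobase of the 65 genes. Eef1a1 had 2541 and 3211 CPM in WT and 3022 and 3647 CPM in DDI2-KO, which overlapped (log2 fold change 0.21, edgeR adjusted p = 0.554). Other annotated genes, chiefly pseudogenes, hold 60.6% of its 50-base stretches. Of the level per kilobase summed over the 65 genes, Eef1a1 made up 45.1% and 48.4% in WT and 43.3% and 52.4% in DDI2-KO, and with Eef2 it made up 59.3% to 62.7% in the 4 libraries. The reads of all 65 genes together were 7544 and 8603 CPM in WT and 9064 and 8944 CPM in DDI2-KO. Without Eef1a1 and Eef2 they were 3930 and 4132 CPM in WT and 4462 and 4394 CPM in DDI2-KO, and neither sum overlapped between groups.

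eEF1B, which recharges eEF1A, is made of the products of Eef1b2, Eef1d and Eef1g. Eef1b2 had 102 and 122 CPM in WT and 183 and 155 CPM in DDI2-KO. The groups were apart, but the log2 fold change of 0.59 (SE 0.18) did not pass (edgeR adjusted p = 0.108), although it did with no filter on low counts (edgeR adjusted p = 0.0408). Eef1d had 71.2 and 83.2 CPM against 81.0 and 63.1 CPM and Eef1g had 53.6 and 64.5 CPM against 80.9 and 57.5 CPM, and both overlapped. The share of Eef1b2 in the complex's level per kilobase was computed after its values were seen. It was 56.1% in both WT libraries and 62.3% and 65.7% in the DDI2-KO libraries. Other annotated genes hold 64.3% of the 50-base stretches of Eef1g and 5.98% of those of Eef1b2. The part of this in the share was not tested. Eef1e1, a small protein of the multisynthetase complex, had 6.54 and 7.22 CPM in WT and 9.66 and 11.7 CPM in DDI2-KO (log2 fold change 0.64, SE 0.21, edgeR adjusted p = 0.120).

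Eef2, the translocase, had 1072 and 1260 CPM in WT and 1579 and 903 CPM in DDI2-KO. The DDI2-KO libraries bracketed the WT libraries and differed from each other 1.75-fold, and the log2 fold change was 0.090 (SE 0.27, edgeR adjusted p = 0.874). It was -0.37 without DDI2-KO library 1 and -0.020 without WT library 1, so its direction rested on single libraries. Its inhibitory kinase Eef2k had 9.87 and 13.8 CPM in WT and 13.0 and 14.4 CPM in DDI2-KO (log2 fold change 0.21, edgeR adjusted p = 0.603). The methyltransferase genes Eef1akmt1, Eef2kmt and Eef1akmt2, whose products modify eEF1A or eEF2, had log2 fold changes of 0.40, 0.18 and -0.095. Eef1akmt1, the highest of them per kilobase, had 3.39 and 3.43 CPM in WT and 4.25 and 4.74 CPM in DDI2-KO (edgeR adjusted p = 0.349).

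**Figure D4:**
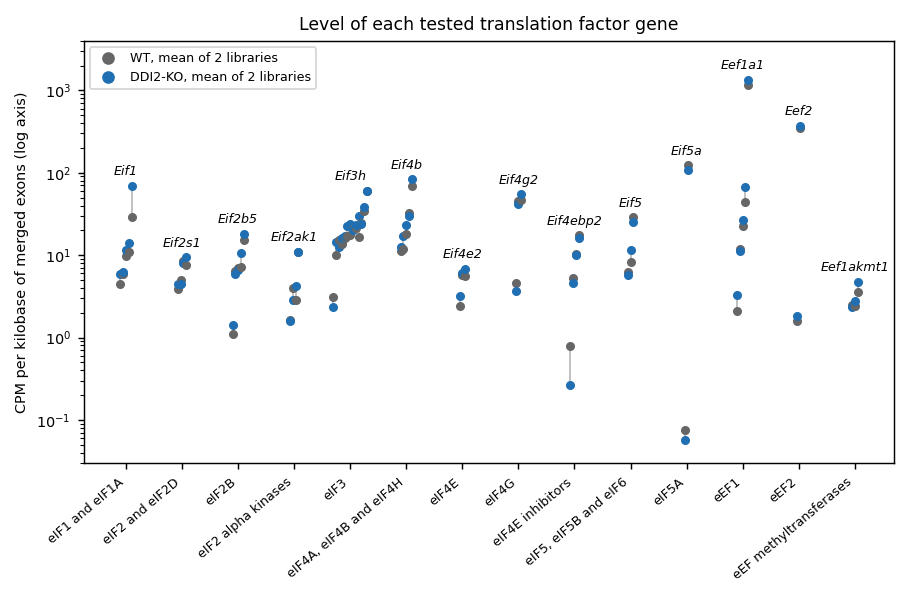
Mean CPM per kilobase of merged exons (y axis, log scale) in WT and DDI2-KO for each of the 61 tested translation factor genes, arranged by complex, with the highest gene of each complex named. Eef1a1 and Eef2 stand above all others, and the WT and DDI2-KO points of most genes nearly coincide.

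Per kilobase, Eef1a1 stood at 1154 ± 190 in WT and 1338 ± 177 in DDI2-KO (SD, n = 2), followed by Eef2 at 351 ± 39.8 and 373 ± 144, and Eif5a at 123 ± 15.5 and 108 ± 3.77. Eif4b and Eif3h followed. Eif1 was at 28.8 ± 0.118 in WT and 69.6 ± 6.51 in DDI2-KO. At the low end, Eif5a2 was at 0.075 in WT and 0.058 in DDI2-KO. The genes of 1 complex were not at 1 level, since among the eIF3 genes Eif3j1 was at 3.09 and Eif3h at 59.2 in WT.

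By complex, the median log2 fold change was highest for eIF1 and eIF1A (0.37), eIF4E (0.28), eIF4A, eIF4B and eIF4H (0.26), eIF2B (0.25) and eEF1 (0.23). Eif1ad was counted with eIF1 and eIF1A, Eif4a3 with eIF4A, and Eef1e1 with eEF1. The median was 0.18 for the methyltransferases, 0.15 for eEF2 and its kinase, 0.087 for eIF3 and 0.033 for eIF2 and eIF2D. It lay below 0 for the eIF2 alpha kinases (-0.030), eIF4G (-0.12), the group of eIF5, eIF5B and eIF6 (-0.13), the eIF4E inhibitors (-0.15, or -0.12 without Eif4ebp3) and eIF5A (-0.28). Each rests on 2 to 13 tested genes, and the order of the medians was not tested. The median turned to -0.020 for eIF2 and eIF2D with upper-quartile factors, to 0.019 for the kinases with library totals and to 0.027 for the eIF5 group with length and GC offsets. Leaving out 1 library also turned those of eIF2 and eIF2D (-0.085 without DDI2-KO library 1), eEF2 and its kinase (-0.040 without DDI2-KO library 1 and -0.016 without WT library 1) and the methyltransferases (-0.028 without WT library 1).

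The log2 fold change tended to be lower for longer transcripts among these genes. Across the 61 genes, which share libraries and are not replicates, Spearman's rho with the longest annotated transcript was -0.28, and across 13675 tested genes it was -0.12. The 20 shortest genes, of 744 to 2170 bases, had a median of 0.18, the middle 20 had 0.27 and the 21 longest, of 3712 to 8134 bases, had -0.12. All tested genes of the same length ranges had medians of 0.059, 0.041 and -0.054. Between the 2 DDI2-KO libraries, library 2 against library 1, rho with GC content was -0.57 across the 61 genes and -0.48 across all, so the difference between these replicates varied with base composition. With offsets for length and GC content the median of the 61 was 0.076, and Eif3e (edgeR adjusted p = 0.0278) and Eif3m (0.0423) passed as well. The part of length and base composition in the other values was not tested.

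**Figure D5:**
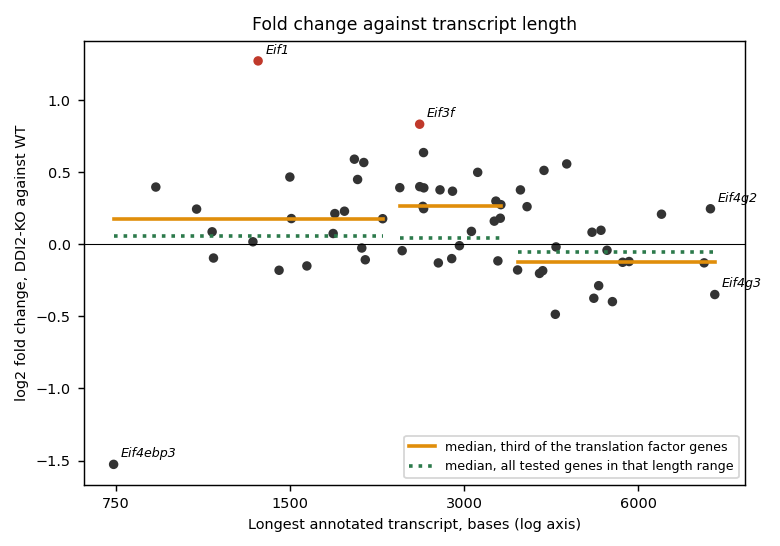
Log2 fold change of DDI2-KO against WT (y axis) against the length of the longest annotated transcript (x axis, bases, log scale) for the 61 tested translation factor genes, with solid lines for the median of each length range and dotted lines for the median of all tested genes in that range. The median is 0.18 and 0.27 in the 2 shorter ranges and -0.12 in the longest.

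Other genes of the pathway were counted in 8 lists. All 65 of them were tested and 0 passed edgeR's test, where the background was 2.53%, with 8 higher and 3 lower at an unadjusted p under 0.05 (16.9%, compared with 23.5% of all tested genes) and a median log2 fold change of 0.084. DESeq2 called 1 of them, and edgeR called 2 with no filter and 2 with length and GC offsets. The lowest adjusted p was that of Pdcd4, an inhibitor of eIF4A, with a mean of 112 CPM in WT and 69.4 CPM in DDI2-KO (log2 fold change -0.69, edgeR adjusted p = 0.0732 and 0.0252 from DESeq2).

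By list, 7 of 9 genes of hypusine and diphthamide synthesis, the modifications of eIF5A and eEF2, were above 0, with a median of 0.37. The genes of hypusine synthesis lay on opposite sides, Dhps at 0.70 and Dohh at -0.38. In the multisynthetase complex, which holds Eef1e1's product, 8 of 10 were above 0 (median 0.24). Of all tested genes, 48.7% were above 0. The medians were 0.16 for 8 termination and recycling genes, 0.085 for 5 genes of the eIF2 phosphatases and GCN2 partners, and 0.017 for 10 mitochondrial translation factors. They were -0.020 for 11 cap, poly(A) and helicase partners, -0.23 for 10 genes of mTORC1 and S6 kinase, and -0.25 for the 2 genes of selenocysteine insertion. None of these lists held a gene that passed the test, and the lists were not tested as sets.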

How the data were processed

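Poly(A) RNA of 4 livers was sequenced after a stranded library protocol. The authors deposited raw counts, reads per Ensembl gene and library, without normalization. The submitters' processing notes name cutadapt 1.8, STAR 2.5.2b, HTSeq 0.6.1 and GRCm38. The annotation release and the strand setting of the counting are not given in the sources used here, so reads of overlapping antisense genes may not be told apart. The 5 summary lines of each file were left out of library sizes. Reads aligned to more than 1 place are in no gene's count. Entries listed as not uniquely aligned made up 37.9% and 32.6% of all entries in WT and 31.7% and 30.6% in DDI2-KO. Whether such an entry is a read or 1 of its alignments is not given, so these may not be shares of reads. Relative to reads on genes, reads in no gene were 5.11% and 4.70% in WT and 2.53% and 3.65% in DDI2-KO. Ambiguous reads were 2.50% and 2.54% against 3.49% and 3.66%. The groups did not overlap in any of these, and their part in the results was not tested. Gene types, lengths and coordinates came from GENCODE M21 (GRCm38), which holds 48349 of the 48709 identifiers. Eef1akmt4 was not analysed here.

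All genes were fitted with edgeR 4.0.16 (TMM, filterByExpr, robust glmQLFit, glmQLFTest) in R 4.3.3, with Benjamini-Hochberg adjustment. A standard error is the log2 fold change divided by the square root of F. Alternatives used limma 3.58.1, DESeq2 1.42.0 and others named in the closing section, and the scripts were tested on simulated data. Tables were made with Python 3.11.15, pandas 2.3.3 and scipy 1.17.1. Motif windows span 250 bases before to 50 after a RefSeq start. Genes given in full were those called, the 5 highest and 5 lowest log2 fold changes among genes with non-overlapping groups and a mean of at least 1 CPM, paralog families, Eif2s1, Eef2, Eef2k and the highest per kilobase in each complex. Other genes named in the text, and the shares so marked, were added after their values were seen. The members and lists were chosen with earlier results of these data known.

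Depth was 22501208 to 34109018 reads on genes. Libraries of a group differed beyond sampling noise (chi-square over its degrees of freedom, 64.7 in WT and 34.7 in DDI2-KO). Groups came from the labelled genotype. The edgeR p-values set the group difference against the spread between 2 libraries per group, moderated across all genes. Detection floors cover counting error only.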

Additional observations from a re-analysis of the deposited data

How the results depend on the processing

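With 2 libraries per group, libraries of a group differed by more than counting noise. The number of translation factor genes called was 2 under RLE, upper-quartile and library-total scaling, DESeq2, a mean of at least 1 CPM, an adjusted p under 0.1, and without kinases, inhibitors and methyltransferases. It was 1 under limma-voom, limma-trend and no robust estimation, 4 with no filter on low counts and 4 with length and GC offsets, all higher in DDI2-KO. Without the 17 genes of which more than 10% of stretches occur elsewhere, an alternative chosen after seeing the data, it was 1 and the median log2 fold change was 0.090. Leaving out 1 library gave 0 to 2 calls, 0 without WT library 1 and 1 without WT library 2. The adjusted p of Eif1 ranged from 4e-08 to 0.0517 over the alternatives and that of Eif3f from 0.0012 to 0.173.

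Of all genes, 907 were called by DESeq2, 139 by limma-trend, 136 by limma-voom, 1544 with no filter, 152 without robust estimation, 770 with offsets and 153 to 631 without 1 library. Upper-quartile scaling changed the split of calls over all genes to 126 higher and 191 lower. Of the other translation genes, 1 was called by DESeq2, 2 with no filter and 2 with offsets. The median log2 fold change of the translation factor genes was 0.076 with offsets and 0.071 to 0.20 without 1 library. With the replicate number as a block, 2 translation factor genes, 1 other translation gene and 1108 of all genes were called. Same-numbered libraries deviated together with a correlation of 0.0588, and no source states a pairing, so the libraries share only a number.

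Direction reversed in 20 values of 10 of the 36 named genes that were tested, none of them called. Without DDI2-KO library 1 the log2 fold change was -0.37 for Eef2 and 0.025 for Eif2ak4. Without DDI2-KO library 2 it was -0.018 for Eif1a, -0.058 for Eif1ax, 0.0052 for Eif2ak1 and 0.17 for Eif4ebp1. Without WT library 1 it was -0.020 for Eef2, -0.012 for Eef2k, 0.10 for Eif2ak1, -0.12 for Eif3h and 0.016 for Eif4a2, and without WT library 2 it was 0.033 for Eif2ak4 and 0.14 for Eif4ebp1. With library totals it was 0.030 for Eif2ak1, 0.0079 for Eif2ak4 and 0.023 for Eif4ebp1. With offsets it was 0.061 for Eif2s2 and -0.12 for Eif3h, and Eif3h had -0.036 with upper-quartile factors and -0.0010 with a mean of at least 1 CPM. Over all 4 ways of leaving out 1 library, the log2 fold change spanned -0.37 to 0.45 for Eef2, -0.012 to 0.47 for Eef2k, -0.018 to 0.68 for Eif1a, -0.058 to 0.25 for Eif1ax, -0.13 to 0.10 for Eif2ak1, -0.11 to 0.033 for Eif2ak4, -0.12 to 0.17 for Eif3h, -0.26 to 0.016 for Eif4a2 and -0.24 to 0.17 for Eif4ebp1. The cause was not tested. Among complex medians, 27 of 210 moved by more than the spread between replicates, and of 80 differences in paralog share 0 did, a spread that is wide with 2 libraries. When 1 library was left out, 7 of 16 share differences changed sign, and the difference for Eif4a1 ran from 4.09 to 14.3 percentage points, that for Eif2ak1 from -3.79 to 2.53, that for Eif4e3 from -1.06 to 5.82 and that for Eif4ebp1 from -1.33 to 5.39.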
